A study of Rattus norvegicus with 71 samples.

Results

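The aorta, which the labels call thoracic artery, was compared with mesenteric artery in Brown Norway (BN) rats 6 months old. The comparison takes 12 of the series' 71 arrays, chosen by the strain, age and vessel in the labels: 6 arrays of aorta and 6 of mesenteric artery. The whole series covers BN rats and the hybrid of Fischer344 and Brown Norway (FBN), both vessels, and ages of 6, 15 and 24 months. For these groups the labels give no genetic change and no drug, but for every array they cite a collateral artery model, in which an adjacent artery is occluded. Whether the vessels compared here come from that model is not stated. The aorta pieces weighed 21.4 to 29.6 mg and the mesenteric pieces 6.6 to 11 mg, ranges that do not overlap, so tissue mass and vessel cannot be told apart. The labels do not say whether each array is a separate rat or whether both vessels came from the same rats, and p-values therefore measure only the spread between arrays.

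The aorta is an elastic artery, whose smooth muscle cells lie between sheets of elastin that store the force of each heartbeat. Mesenteric arteries are muscular distributing and resistance vessels, densely supplied by sympathetic nerves, which set the flow to the gut by contracting and relaxing. The fat around the rat thoracic aorta is brown fat, whose cells burn fatty acids to make heat through the mitochondrial uncoupling protein UCP1, whereas mesenteric arteries run through white fat, lymph vessels and nerves of the mesentery.

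Affymetrix MAS5 signals, linear brightness values that the authors scaled to 1 trimmed mean per array, were compared on the log2 scale with limma's moderated test. Differences are log2 aorta minus mesenteric artery ± standard error (n = 6 arrays each), so a positive value means a higher signal in aorta. A gene is called higher or lower where the Benjamini-Hochberg adjusted p over all 17045 tested probe sets was under 0.05. By this rule 12361 probe sets (72.5%) differed, 5003 (29.4%) higher in aorta and 7358 (43.2%) higher in mesenteric artery. Of 9906 genes, each read by its brightest tested probe set, 7288 (73.6%) differed, 2945 (29.7%) higher in aorta and 4343 (43.8%) higher in mesenteric artery. In 5240 genes (52.9%) the signals of the vessels did not overlap, 2186 (22.1%) higher in aorta and 3054 (30.8%) higher in mesenteric artery. A count for any group of genes below has to be read against these shares. They depend on the filter on low signals, without which 47.9% of probe sets differed. The median difference over all genes was -0.16. With each array centred on its own median instead it was -0.0083 over probe sets, against -0.16, and the calls split into 6048 higher in aorta and 5979 higher in mesenteric artery.

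Among the 15 genes with the largest called differences toward aorta whose brighter group lay above the 75th percentile of tested signals, Ucp1 and Cox8b, a subunit of respiratory complex IV found in brown fat and striated muscle, stood first at 12.01 ± 0.40 and 11.82 ± 0.43. Aspg, Tmem79, Scd, Acacb, Slc27a2, Pex6, Cib2, Gk, Elovl6, Mybpc2, Cpt1b, Mb and Gys2 followed, at 7.64 to 5.50. Several of these were near the bottom of the signal range in mesenteric artery, so their size and order depend on how low values are treated. After adding an offset of 20.1, the 10th percentile of all signals, before log2, the 13 ran from 7.45 for Scd to 5.10 for Mb, with Aspg at 6.56, Tmem79 at 6.40 and Acacb at 5.63. Scd, Elovl6 and Acacb act in fatty acid synthesis or its control, Slc27a2 activates fatty acids, Cpt1b passes them into mitochondria, Gk makes glycerol phosphate and Gys2 makes glycogen. Toward mesenteric artery the 15 largest differences were smaller. Apod (-5.41 ± 0.42), a lipid carrier, and Ttyh1 (-5.22 ± 0.12), Lgi4 (-4.37 ± 0.16) and Gpm6b (-4.13 ± 0.16), all known from glial cells, were among them. So were Grem1 (-5.09 ± 0.38), an antagonist of bone morphogenetic proteins, the neuropeptide Y receptor Npy1r (-4.12 ± 0.25), Reln (-4.07 ± 0.27), a secreted glycoprotein of lymphatic endothelium and neurons, Sostdc1 (-4.04 ± 0.13), a secreted BMP and Wnt modulator, and Aldh1a1 (-4.20 ± 0.32), which makes retinoic acid. The other members of the 15 were Zfp536, Dgkg, Srl, Slc6a17, Rbm24 and Olr59, at -4.92 to -3.87.

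**Figure D1:**
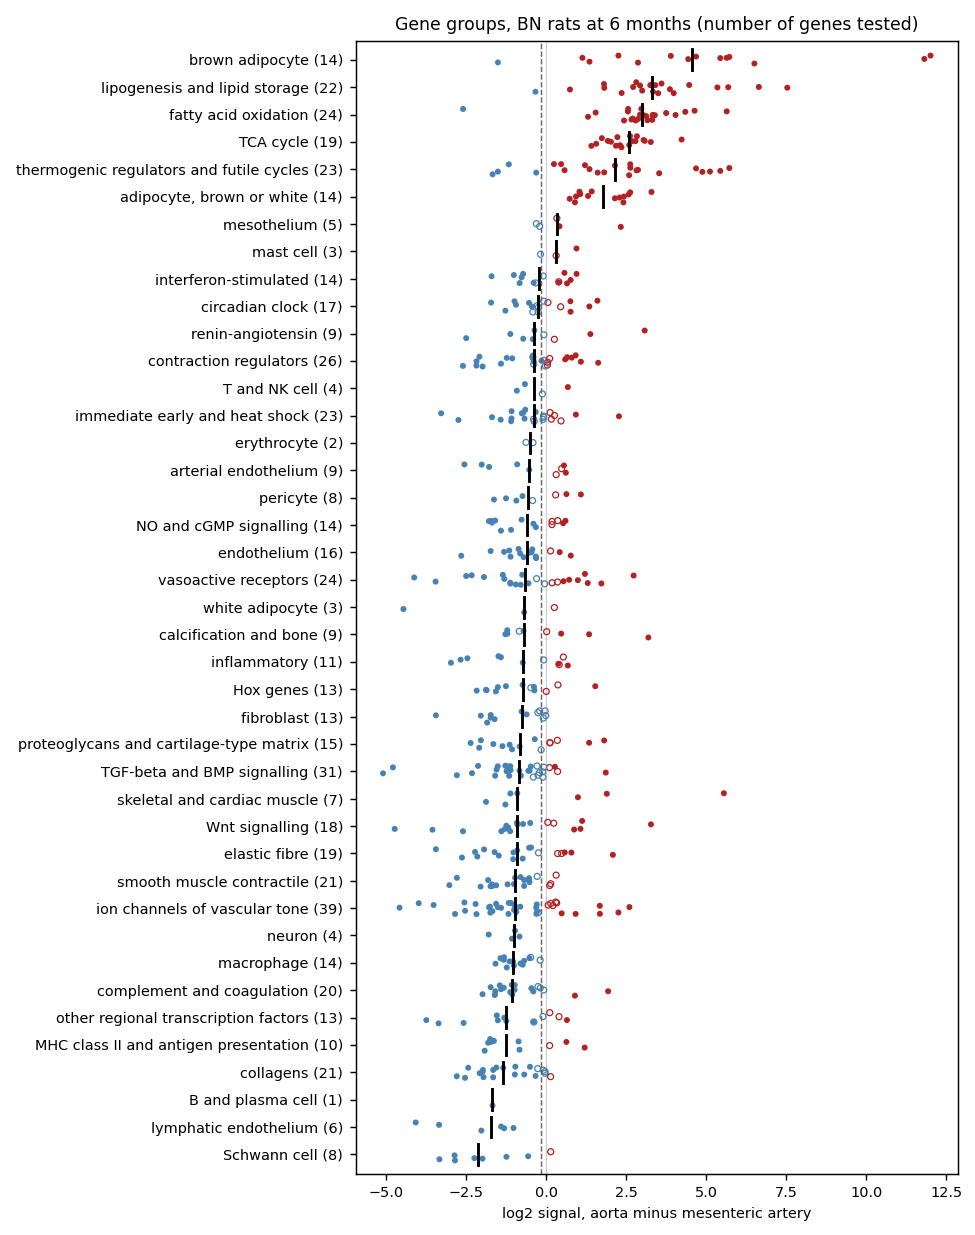
Log2 difference, aorta minus mesenteric artery, of every tested member of each gene group (1 point per gene, filled where called, open where not), with the group median as a bar and the median over all genes (-0.16) as a dashed line. Brown and common adipocyte, fat synthesis and mitochondrial fuel groups lie to the right of 0, with medians of 1.79 to 4.57, the white adipocyte group to the left (-0.68), and lymphatic endothelium and Schwann cell groups lie to the left, with medians of -1.71 and -2.11.

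Brown adipocyte genes separated the vessels completely. Ucp1 had lowest, median and highest signals of 74628, 85613 and 92267 in aorta and of 8.77, 18.9 and 70.4 in mesenteric artery. Cox8b read 44027, 51338 and 60351 in aorta and 5.24, 13.6 and 63.9 in mesenteric artery. The mesenteric signals of both genes lie at the low end of the array's range, where a ratio depends on how low values are treated. The ratio, back-transformed from the difference of mean log2 signals, was 4124-fold for Ucp1 and 3607-fold for Cox8b. With the same offset it was 1939-fold and 1382-fold. No detection calls were used here. Of 18 listed brown adipocyte genes 16 were on the array and 14 passed the filter on low signals; 13 of these were higher in aorta and 1 lower, with a median difference of 4.57 against -0.16 over all genes. Cidea, a lipid droplet protein, read 42988, 52141 and 61718 in aorta and 3135, 3492 and 3964 in mesenteric artery (3.90 ± 0.10), so that mesenteric arrays also held a clear signal. Dio2, the deiodinase that activates thyroid hormone, Fabp3, a fatty acid carrier, and Esrrg, a nuclear receptor of mitochondrial genes, differed by 5.44 ± 0.35 (4.53 with the offset), 4.44 ± 0.22 and 4.69 ± 0.20. Kcnk3, Ebf2 and Cox7a1 differed by less, at 2.26 ± 0.14, 1.36 ± 0.21 and 1.14 ± 0.19. The exception was Prdm16, a coregulator of brown adipocyte identity that other cells of the vessel wall also express. It read 377, 539 and 858 in aorta and 995, 1618 and 2005 in mesenteric artery and was lower in aorta (-1.50 ± 0.20, adjusted p = 5.42e-06).

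The promoters of 3 brown adipocyte genes are shown because the first 2 belong to the most different genes of the comparison and the last to Ppargc1a, the coactivator that drives mitochondrial genes in brown fat (2.87 ± 0.31). Each gives the 250 bases before the gene's start in RefSeq's GRCr8 assembly, 5′ to 3′ on the gene's strand. The Ucp1 window is chr19:41721422-41721671 on the minus strand, with TATAAA, the letters of a TATA box, in capitals 30 to 25 bases before the start. The Cox8b window is chr1:205408274-205408523 on the minus strand, with TATAAA in capitals 39 to 34 bases before the start. The Ppargc1a window is chr14:63634058-63634307 on the plus strand, with TGACGTCA, the letters of a cAMP response element, in capitals 181 to 174 bases before the start.
Ucp1: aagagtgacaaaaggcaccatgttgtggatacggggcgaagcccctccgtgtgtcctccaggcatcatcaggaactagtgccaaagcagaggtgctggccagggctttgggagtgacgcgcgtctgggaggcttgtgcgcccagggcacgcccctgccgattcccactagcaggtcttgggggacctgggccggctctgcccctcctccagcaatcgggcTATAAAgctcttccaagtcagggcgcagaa
Cox8b: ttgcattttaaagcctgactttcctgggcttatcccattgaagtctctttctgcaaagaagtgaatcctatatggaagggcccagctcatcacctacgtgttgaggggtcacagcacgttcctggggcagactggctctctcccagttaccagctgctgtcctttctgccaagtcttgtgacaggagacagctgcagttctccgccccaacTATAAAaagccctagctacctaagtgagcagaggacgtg
Ppargc1a: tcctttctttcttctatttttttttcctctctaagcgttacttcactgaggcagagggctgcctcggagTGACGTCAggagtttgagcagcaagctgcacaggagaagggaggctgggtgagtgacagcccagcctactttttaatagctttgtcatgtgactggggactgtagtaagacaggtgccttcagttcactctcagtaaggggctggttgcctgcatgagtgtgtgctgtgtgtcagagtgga
Both strands were searched. TATAAA stood in 12.9% of all 33469 RefSeq promoter windows. Counted per gene, in any of its windows, it stood in 14.1% of 27457 RefSeq genes and 6.59% of 8266 tested genes. It stood in 3 of the 11 brown adipocyte genes with a window, Cox8b, Dio2 and Ucp1. TGACGTCA stood in 1.59% of all windows, 1.78% of RefSeq genes and 3% of tested genes, and in 1 of the 11, Ppargc1a. The 9-letter element TNAAGGTCA of the nuclear receptors ERR stood in 1.04% of all windows, 1.1% of RefSeq genes and 0.484% of tested genes. It stood in 0 of 11 brown adipocyte, 0 of 19 fatty acid oxidation and 0 of 17 citric acid cycle genes.

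Genes that all fat cells use were high in both vessels and higher in aorta. All 14 listed genes common to brown and white adipocytes were measured and higher in aorta, with a median difference of 1.79. Adipoq, the hormone adiponectin, read 32545, 35473 and 44693 in aorta and 15164, 18627 and 19717 in mesenteric artery, a difference of 1.05 ± 0.09. Fabp4, a fatty acid carrier, read 62953, 70668 and 78316 and 27494, 34296 and 37230.5. Both genes were bright in all 12 arrays, and every aorta array lay above every mesenteric array. The difference was larger for Pparg (3.30 ± 0.17), the master regulator of fat cells, Adrb3 (2.63 ± 0.11), the adrenergic receptor that starts fat breakdown, Cebpa (2.58 ± 0.12), Pnpla2 (2.43 ± 0.08) and Lipe (2.30 ± 0.13), the lipases of stored fat. Of 7 listed white adipocyte genes only 3 passed the filter. Tcf21 (-4.45 ± 0.41) and Wt1 (-0.68 ± 0.25, adjusted p = 0.0251), transcription factors of visceral fat and its mesothelium, were lower in aorta, and the difference of Agt, angiotensinogen, was 0.26 ± 0.16 (adjusted p = 0.141). Wt1 did not pass without aorta array 3, aorta array 4 or mesenteric array 5 (-0.83 to -0.51 over all arrays left out in turn), nor under quantile normalization (-0.57) or with arrays centred on their median (-0.53). In these whole pieces a smaller number of cells of a type and less RNA per cell cannot be told apart.

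Mitochondrial fuel genes were higher in aorta almost without exception. Of 24 measured fatty acid oxidation genes 23 were higher in aorta (median 3.01), and of 19 citric acid cycle and pyruvate dehydrogenase genes all 19 (median 2.60, range 1.42 to 4.24). The isozymes of carnitine palmitoyltransferase, the gate of fatty acids into mitochondria, went opposite ways. Cpt1b, the muscle and brown fat form, read 29273, 31149 and 40733 in aorta and 563, 659 and 814 in mesenteric artery (5.64 ± 0.11). Cpt1a, the form of liver and many other tissues, read 705, 1112 and 1351 in aorta and 5858, 6355 and 6537 in mesenteric artery (-2.59 ± 0.15). The arrays of the vessels did not overlap for either isozyme. Further along the pathway Cpt2 (4.64 ± 0.16), Etfdh (4.35 ± 0.14), Slc25a20 (4.05 ± 0.13), which carries acylcarnitine, and the medium chain dehydrogenase Acadm (3.17 ± 0.08) were higher. In the citric acid cycle Idh3a differed most (4.24 ± 0.12), and its partner subunits Idh3b and Idh3g by 2.60 ± 0.09 and 2.79 ± 0.09.

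Fat synthesis genes were higher in aorta as well. Of 22 measured genes of lipogenesis and lipid storage 21 were higher in aorta (median 3.33). The stearoyl-CoA desaturases differed from each other. Scd read 56898, 67021 and 77000.3 in aorta and 169, 348 and 749 in mesenteric artery (7.54 ± 0.29), whereas Scd2 read 4490.2, 5608 and 7365 and 5878, 7393 and 8340.2 and was slightly lower in aorta (-0.33 ± 0.12, adjusted p = 0.0206). Scd2 did not pass without aorta array 6 (-0.26), nor with arrays centred on their median (-0.18). Fasn, fatty acid synthase, Acly, which makes cytosolic acetyl-CoA, and Mlxipl, a glucose-sensing regulator of these genes, were higher by 3.00 ± 0.13, 3.31 ± 0.09 and 4.47 ± 0.16. Of 23 measured regulators of heat production and futile cycles 19 were higher in aorta and 4 lower (median 2.15). Ppara, a nuclear receptor of fatty acid oxidation, read 254, 532 and 833 in aorta and 7.25, 10 and 56.4 in mesenteric artery (4.88 ± 0.60, and 3.65 with the offset). Nrg4, a growth factor secreted by brown fat, and Letmd1, a mitochondrial protein of brown fat, differed by 5.12 ± 0.46 (4.46 with the offset) and 3.53 ± 0.10. The 4 lower genes were Prdm16, Ckb (-1.67 ± 0.12), the creatine kinase of a futile cycle that is also a smooth muscle and brain enzyme, Nrf1 (-1.16 ± 0.16) and Atp2a2 (-0.31 ± 0.09), the last of which did not pass with arrays centred (-0.15).

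**Figure D2:**
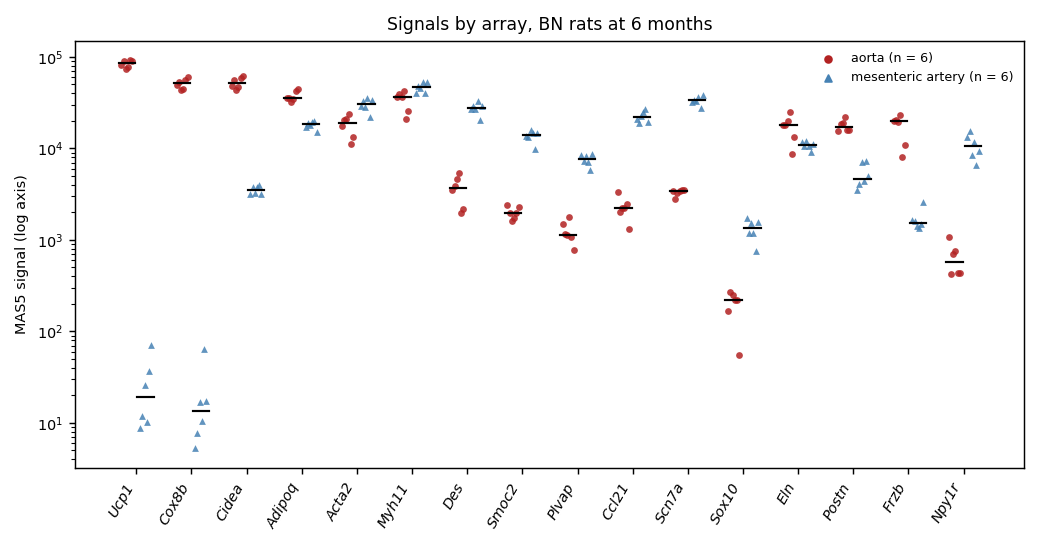
Signal of 16 genes in each of the 12 arrays (log axis; circles for aorta, triangles for mesenteric artery, a bar at each group's median). Ucp1 and Cox8b lie near the bottom of the axis in mesenteric arrays and near its top in aorta arrays, Des, Smoc2, Plvap and Scn7a are lower in every aorta array, and Acta2, Myh11 and Eln overlap between vessels.

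Smooth muscle genes were abundant in both vessels, and most were lower in aorta. Of 22 listed contractile genes 21 were measured; 17 were higher in mesenteric artery and 4 did not pass, with a median of -0.97. The size of the difference varied widely between genes of this list. Des, the intermediate filament desmin, read 1956, 3718 and 5363 in aorta and 20551, 27962 and 32708 in mesenteric artery (-3.02 ± 0.21), so every aorta array lay below every mesenteric array. Smoc2 (-2.78 ± 0.12), a matricellular protein, and Actg2 (-2.04 ± 0.23), the actin typical of visceral smooth muscle, were also far lower. Synm, a partner of desmin, Synpo2 and Smtn differed by -1.69 ± 0.15, -1.73 ± 0.18 and -1.81 ± 0.13. In contrast Acta2, the actin of vascular smooth muscle, read 11173, 18921 and 23496 in aorta and 21858, 30751 and 35461 in mesenteric artery, ranges that overlap (-0.80 ± 0.17). Myh11, the smooth muscle myosin heavy chain, differed by -0.52 ± 0.15. Tagln (-0.28 ± 0.13, adjusted p = 0.0732), Mylk (0.11 ± 0.08, adjusted p = 0.185), the kinase that starts contraction, Itga8 (0.32 ± 0.25, adjusted p = 0.265) and Kcnmb1 (0.15 ± 0.19, adjusted p = 0.492) did not pass. With the probe set of smallest p the difference was 1.82 for Itga8 and 0.75 for Mylk. Of 21 alternative settings, Itga8 and Mylk were each called higher in aorta in 2, and Tagln lower in 5. The mean log2 signal of the smooth muscle contractile genes ran from 12.52 to 13.56 in aorta and from 13.93 to 14.45 in mesenteric artery. The lowest aorta values, 12.52 and 12.81, were those of arrays 5 and 6, which also had the highest brown adipocyte means, 12.80 and 12.76, against 12.53 to 12.68 in the other 4. Without aorta array 5, 1 contractile gene was called higher in aorta, as it was with arrays centred on their median. Over all arrays the brown adipocyte mean was 12.53 to 12.80 in aorta and 7.70 to 8.05 in mesenteric artery. The part of fat tissue in the lower signals of smooth muscle, and in those of the wall and nerve genes described next, was not tested.

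General endothelial genes were mostly lower in aorta, while pericyte and arterial endothelial genes were divided. Of pericyte genes 25% were higher and 50% lower, and of arterial endothelial genes 22.2% and 55.6%. Over all genes the shares were 29.7% and 43.8%. Of 8 pericyte genes 4 were lower, 2 higher and 2 did not pass; the proteoglycan Cspg4 (-1.63 ± 0.19) and the channel subunit Abcc9 (-0.93 ± 0.08) were among the lower. Rgs5, a brake on G protein signals, was higher at 1.09 ± 0.12, as was Higd1b at 0.64 ± 0.14, which did not pass in the fit of all 71 arrays (adjusted p = 0.0623). Of 16 measured general endothelial genes 13 were lower in aorta, 2 higher and 1 did not pass (median -0.60). Plvap, which forms the diaphragms of fenestrated and venous endothelium, read 782, 1142 and 1801 in aorta and 5779.9, 7729 and 8768 in mesenteric artery (-2.65 ± 0.17). Vwf, von Willebrand factor, Esam and Cldn5, both junction proteins, differed by -1.73 ± 0.15, -1.31 ± 0.10 and -1.15 ± 0.21. The higher genes were the VEGF receptors Kdr (0.77 ± 0.14, adjusted p = 0.000118) and Flt1 (0.43 ± 0.18, adjusted p = 0.0445), beside a higher signal of their ligand Vegfa (2.15 ± 0.12). Kdr did not pass in the fit of all 71 arrays (adjusted p = 0.0695). Flt1 did not pass when aorta array 1, 2, 5 or 6 or mesenteric array 2, 4, 5 or 6 was left out, and over all arrays left out in turn its difference was 0.34 to 0.58. Among 9 arterial endothelial genes Gja4 (-2.55 ± 0.10), Jag1 (-2.01 ± 0.15) and Gja5 (-1.78 ± 0.25) were lower in aorta, and Sox17 (0.62 ± 0.15) and Notch4 (0.56 ± 0.22, adjusted p = 0.0322) higher. Sox17 did not pass in the fit of all 71 arrays (adjusted p = 0.0601). Notch4 did not pass when aorta array 1, 3, 5 or 6 or mesenteric array 3, 4 or 6 was left out (0.45 to 0.65 over all arrays left out in turn).

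Of 7 lymphatic genes on the array 6 passed the filter, and all 6 were lower in aorta (median -1.71) without overlap between the vessels. Over all genes 43.8% were lower in aorta, and 30.8% were lower without overlap. Ccl21, the chemokine that draws cells into lymph vessels, read 1301, 2237 and 3338 in aorta and 18845, 21782 and 27209 in mesenteric artery (-3.34 ± 0.17). Reln read 107, 335 and 460.3 and 4310.2, 4923 and 6213. Mmrn1 differed by -2.02 ± 0.27 and Prox1, the transcription factor that defines lymphatic endothelium, by -1.40 ± 0.12. Prox1 signals were 249 to 326 in aorta and 644 to 837 in mesenteric artery.

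Nerve genes gave some of the clearest differences. Of 8 measured Schwann cell genes 7 were lower in aorta (median -2.11). Scn7a, a sodium channel of Schwann cells and other support cells, read 2765, 3453 and 3516 in aorta and 27725, 33455 and 38026 in mesenteric artery (-3.33 ± 0.09). Sox10, the transcription factor of the Schwann cell lineage, read 55.4, 219.8 and 267 and 754, 1349 and 1741 (-2.86 ± 0.33). Mbp, myelin basic protein, differed by -2.84 ± 0.16, although 1 of its 2 other probe sets was called the other way, at 2.25. S100b, which fat cells also make, was bright in both vessels, at medians of 15457 in aorta and 13916 in mesenteric artery, and did not pass (0.15 ± 0.08, adjusted p = 0.0974). Without aorta array 3, 1 Schwann cell gene was called higher in aorta, as with arrays centred on their median. All 4 neuronal genes that passed the filter, of 13 on the array, were lower: Uchl1 (-1.79 ± 0.20), Gap43 (-1.06 ± 0.32), Npy (-0.97 ± 0.32) and Prph (-0.83 ± 0.16). Their signals were low throughout, at most 1213 for Uchl1 and 1338 for Npy, the sympathetic cotransmitter.

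Immune cell genes were lower in aorta for the macrophage group and scarce otherwise. Of 14 macrophage genes 12 were higher in mesenteric artery (median -1.02), among them Adgre1 (-1.58 ± 0.28), Cd163 (-1.42 ± 0.19), a scavenger receptor, C1qa (-1.32 ± 0.19) and Cd14 (-1.31 ± 0.19). Cd68 (-0.18 ± 0.26, adjusted p = 0.531) and Tyrobp (-0.48 ± 0.26, adjusted p = 0.104) did not pass. Cd74 and the classical class II molecules RT1-Da, RT1-Db1, RT1-Ba and RT1-Bb were lower together, at -1.63 to -1.92. The peptide loaders RT1-DMb (1.21 ± 0.19) and RT1-DMa (0.64 ± 0.19) were higher in aorta, RT1-DMa with an adjusted p of 0.0625 in the fit of all 71 arrays. Few lymphocyte and mast cell genes passed the filter, namely 4 of 11 on the array for T and NK cells, 1 of 7 for B and plasma cells and 3 of 8 for mast cells. Jchain, of antibody-secreting cells, was lower in aorta (-1.69 ± 0.25), and the chemokine Ccl5 (0.68 ± 0.19) and the tryptase Tpsb2 (0.93 ± 0.22) were higher; Tpsb2 did not pass in the fit of all 71 arrays (adjusted p = 0.165). Of 11 genes of exocrine pancreas and gut on the array 0 passed the filter. Both measured erythrocyte genes, Hbb (-0.63 ± 0.29, adjusted p = 0.0661) and Alas2 (-0.41 ± 0.37, adjusted p = 0.336), did not pass.

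Striated muscle genes that passed the filter did not move together. Of 16 on the array 7 passed it, of which 3 were higher in aorta and 4 lower. Mb, myoglobin, also known from brown fat, read 1458, 2745 and 3463 in aorta and 25.2, 59.3 and 79.6 in mesenteric artery (5.56 ± 0.27), and Myh1 was higher by 1.90 ± 0.13. Ckm, muscle creatine kinase, Tnnt3, a troponin, and Acta1, skeletal actin, were lower, at -1.27 ± 0.25, -1.87 ± 0.36 and -1.11 ± 0.32, of which Acta1 did not pass in the fit of all 71 arrays (adjusted p = 0.0513). Of 5 measured mesothelial genes 3 did not pass, and Lrrn4 (2.34 ± 0.19) and Krt8 (0.42 ± 0.16, adjusted p = 0.0295) were higher in aorta. Krt8 did not pass when aorta array 2 or 6 or mesenteric array 2, 3 or 5 was left out (0.33 to 0.48 over all arrays left out in turn).

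The genes of the elastic fibre divided into a few that were higher in aorta and a majority that were lower. Of 19 measured genes 3 were higher, 13 lower and 3 did not pass (median -0.90). Eln, elastin itself, read 8585, 17933 and 25248 in aorta and 9045, 10936 and 12127 in mesenteric artery (0.58 ± 0.19, adjusted p = 0.013). Its ranges overlap through 1 low aorta array, and its other probe set was called the other way (-0.70). Under quantile normalization Eln did not pass. Lox, which cross-links elastin and collagen, read 5470.2, 13230.5 and 15132 and 5127, 6492 and 7492 (0.79 ± 0.21). Ltbp2, a fibrillin-binding protein, read 1451, 2609 and 3389 in aorta and 337, 588 and 934 in mesenteric artery (2.09 ± 0.23) without overlap. On the other side stood Fbln1 (-3.44 ± 0.26), Emilin1 (-2.62 ± 0.23), Efemp1 (-2.22 ± 0.19), Fbln2 (-2.14 ± 0.20) and Loxl1 (-1.48 ± 0.15), another cross-linking enzyme. Fbln5 (0.49 ± 0.25, adjusted p = 0.0893) and Mfap4 (0.36 ± 0.24, adjusted p = 0.184), both elastin-binding, did not pass. Without aorta array 5, whose mean over these genes was the lowest, 5 elastic fibre genes were higher in aorta.

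Collagens split by type. Of 21 measured chains 0 were higher in aorta, 16 were lower and 5 did not pass (median -1.34). The abundant fibril chains Col1a1 (-0.08 ± 0.21, adjusted p = 0.727), Col1a2 (-0.03 ± 0.20, adjusted p = 0.899) and Col3a1 (-0.03 ± 0.11, adjusted p = 0.828) did not pass, nor did Col4a1 and Col4a5 of the basement membrane. Over 21 alternative settings the lowest values were -0.52 for Col1a1, -0.47 for Col1a2 and -0.49 for Col3a1. Each of these fibril chains was called lower in aorta in 1 setting. Col3a1, as an example, read 30855, 40188 and 45097 in aorta and 31634, 39018 and 47631 in mesenteric artery, and the arrays of both vessels were interleaved. Both chains of type VIII collagen, a network collagen of vessel walls, were far lower. Col8a1 read 518, 570.1 and 804 in aorta and 3108, 3393 and 3901 in mesenteric artery (-2.53 ± 0.11), and Col8a2 differed by -2.79 ± 0.15. Col11a1 (-2.43 ± 0.18), Col14a1 (-2.07 ± 0.15), Col16a1 (-1.98 ± 0.13) and the type VI chains Col6a1 to Col6a3 (-1.34 to -1.65) were lower as well. Without aorta array 3, or with arrays centred, 1 collagen was called higher in aorta. Among 13 fibroblast genes 8 were lower and 5 did not pass, with Dpt (-1.84 ± 0.12), Clec3b (-2.04 ± 0.19) and Pdgfra (-1.73 ± 0.15) the clearest beside Fbln1.

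Other matrix genes differed both ways. Of 15 proteoglycan and cartilage-type genes 2 were higher and 9 lower. The higher were Postn, periostin, which read 15677, 17357 and 21862 in aorta and 3477, 4680.4 and 7273 in mesenteric artery (1.82 ± 0.17), and Omd, osteomodulin (1.35 ± 0.23). The lower included Thbs4 (-2.35 ± 0.30), Tnc, tenascin C (-2.09 ± 0.17), Matn2 (-2.03 ± 0.19) and Fmod (-1.64 ± 0.23). Of 9 genes tied to calcification and bone 3 were higher, 4 lower and 2 did not pass (median -0.70). The shares of 33.3% higher and 44.4% lower lie near the 29.7% and 43.8% over all genes. The lower were the ligands Bmp4 (-1.27 ± 0.21) and Bmp2 (-1.21 ± 0.27), Clec11a (-1.21 ± 0.21) and Enpp1 (-0.70 ± 0.11). Of the higher, Spp1, osteopontin, read 2685, 6440.3 and 7939 in aorta and 231, 616 and 1485 in mesenteric artery (3.20 ± 0.38), and Tnfrsf11b, osteoprotegerin, differed by 1.35 ± 0.26. Mgp, the inhibitor of vessel calcification, was among the brightest genes in both vessels and did not pass (0.02 ± 0.11, adjusted p = 0.87).

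Receptors for vasoactive signals gave differences in both directions. Of 46 listed receptors 42 were on the array and 24 passed the filter; 7 were higher in aorta, 13 higher in mesenteric artery and 4 did not pass (median -0.65). These shares, 29.2% and 54.2%, stand against 29.7% and 43.8% over all genes. The receptors of the sympathetic cotransmitters were the most different. Npy1r, for neuropeptide Y, read 428, 566 and 1086 in aorta and 6644, 10522 and 15588 in mesenteric artery (17.4-fold higher in mesenteric artery). P2rx1, the ion channel opened by ATP from sympathetic nerves, read 935, 1986 and 2471 and 12174, 20274 and 25308 (-3.45 ± 0.22, 10.9-fold). For both genes the lowest mesenteric array lay several-fold above the highest aorta array. Among peptide receptors Avpr1a, for vasopressin, and both rat type 1 angiotensin receptors, Agtr1b and Agtr1a, were lower in aorta (-2.32 ± 0.23, -2.49 ± 0.32 and -1.11 ± 0.19). Calcrl and its partner Ramp1, which form the receptor for the sensory nerve peptide CGRP, were lower, at -1.35 ± 0.21 and -1.11 ± 0.20. Higher in aorta were the alpha 1D adrenergic receptor Adra1d (0.55 ± 0.16), the adenosine receptor Adora1 (1.73 ± 0.12) and the beta 1 receptor Adrb1 (1.22 ± 0.31), of which fat cells also express the last 2. Adra1d did not pass in the fit of all 71 arrays (adjusted p = 0.105). Npr3, which clears natriuretic peptides, read 638, 973 and 1272 in aorta and 83.4, 141 and 231 in mesenteric artery (2.74 ± 0.25). The same contrast in FBN rats gave 0.05 for Npr3, a difference between strains that did not pass (2.69 ± 1.42, adjusted p = 0.318).

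**Figure D3:**
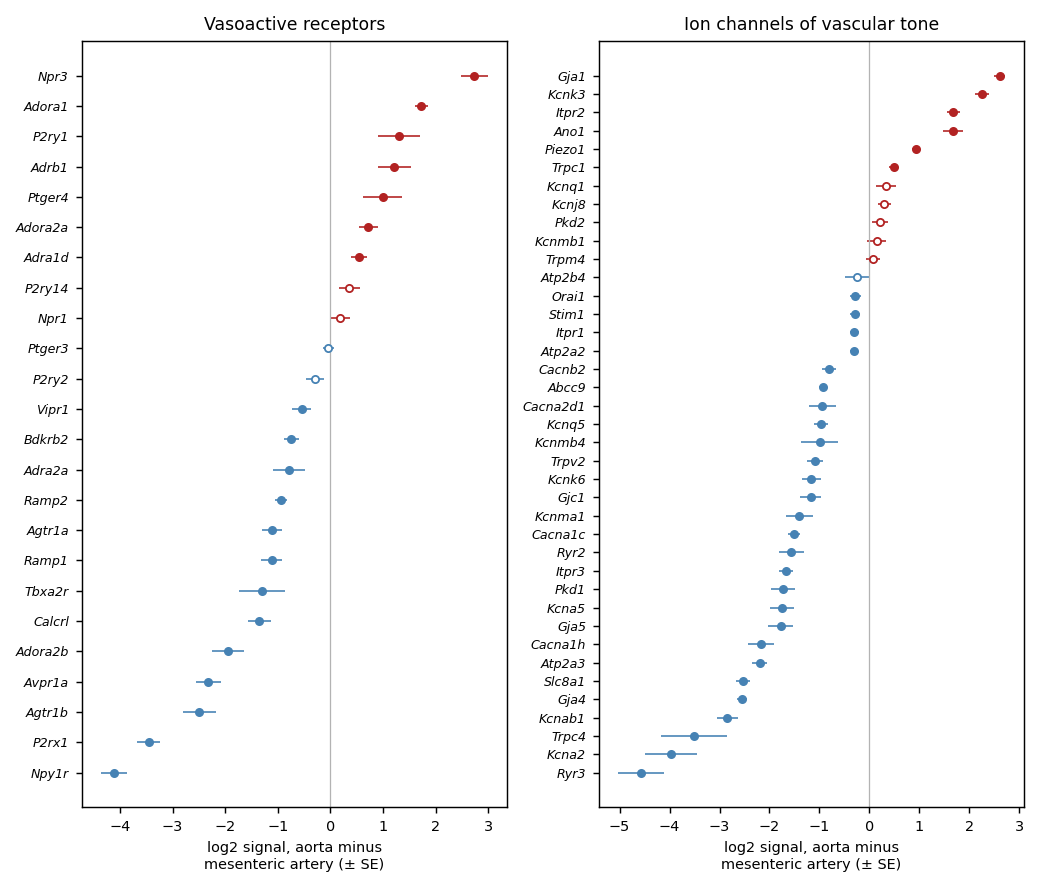
Log2 difference, aorta minus mesenteric artery, ± standard error for the measured vasoactive receptors (left) and ion channels (right), filled where called. Npy1r (-4.12) and P2rx1 (-3.45) lie at the mesenteric end of the receptors and Npr3 (2.74) at the aorta end; Ryr3 (-4.57) and Gja1 (2.60) mark the ends of the channels.

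Ion channels and calcium handling genes were mostly higher in mesenteric artery. Of 39 measured genes 27 were higher there, 6 higher in aorta and 6 did not pass (median -0.97). Ryr3, a calcium release channel, read 14.5, 93.7 and 122 in aorta and 997, 1600 and 1809.8 in mesenteric artery (-4.57 ± 0.46). The voltage-gated potassium channel genes Kcna2 (-3.98 ± 0.52, and -3.26 with the offset), Kcna5 (-1.75 ± 0.24) and their beta subunit Kcnab1 (-2.84 ± 0.21) were lower together. Kcnab1 read 541, 942 and 1271 in aorta and 5112, 6299 and 7933 in mesenteric artery. Calcium entry and removal followed the same direction, with the L-type channel Cacna1c (-1.50 ± 0.12), the T-type channel Cacna1h (-2.17 ± 0.26), the exchanger Slc8a1 (-2.53 ± 0.15) and the pump Atp2a3 (-2.20 ± 0.15). The large conductance channel Kcnma1 was lower, at -1.41 ± 0.27, while the difference of its beta subunit Kcnmb1 did not pass. Among channels higher in aorta were the chloride channel Ano1 (1.68 ± 0.20), Itpr2 (1.68 ± 0.13) and the force-gated channel Piezo1 (0.93 ± 0.07). The connexins of gap junctions reversed between the vessels. Gja1, connexin 43, read 26489.7, 30237 and 38506 in aorta and 3861, 5239 and 6084 in mesenteric artery (2.60 ± 0.11), whereas Gja4 read 1073, 1215 and 1353 and 5537, 7280.4 and 8342, and Gja5 and Gjc1 were also lower in aorta (-1.78 ± 0.25 and -1.17 ± 0.21).

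Of 14 measured genes of nitric oxide and cGMP signalling 9 were lower in aorta and 2 higher. The subunits of soluble guanylate cyclase, the nitric oxide receptor, moved alike. Gucy1a1 read 3033, 4397 and 5011 in aorta and 10652, 12374 and 13869 in mesenteric artery (-1.59 ± 0.13), and Gucy1b1 differed by -1.71 ± 0.15. Irag1, a target of the cGMP-dependent kinase in smooth muscle, differed by -1.69 ± 0.20. Nos3, endothelial nitric oxide synthase, was only slightly lower (-0.32 ± 0.13, adjusted p = 0.0423). It did not pass without aorta array 1, 3, 4 or 6 or mesenteric array 1, 3 or 4 (-0.39 to -0.22 over all arrays left out in turn), nor under quantile normalization (-0.15) or centring (-0.16). Cav1 (0.54 ± 0.07) and Asl (0.61 ± 0.10), which remakes arginine, were higher, although Cav1 did not pass under quantile normalization (0.03). Among 26 contraction regulators 6 were higher in aorta, 13 lower and 7 did not pass. The shares of 23.1% higher and 50% lower lie near the 29.7% and 43.8% over all genes. Ppp1r14a, the inhibitor of myosin phosphatase known as CPI-17, read 1948, 4573 and 5742 in aorta and 13561, 18120.2 and 20741 in mesenteric artery (-2.17 ± 0.24). Prkcq (-2.59 ± 0.26) and Camk2g (-2.17 ± 0.12), both kinases, were lower too. Regulators of G protein signalling differed from each other: Rgs2 was higher in aorta (1.63 ± 0.23), as Rgs5 was, and Rgs4 lower (-2.08 ± 0.12).

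Homeobox genes, which mark a cell's position along the body axis, were mostly lower in aorta. Of 39 listed Hox genes 22 were on the array and 13 passed the filter; 1 was higher in aorta, 9 were lower and 3 did not pass. Hoxa5 was the gene higher in aorta, with signals of 2339.6, 3398 and 3799 in aorta and 802, 1146 and 1289 in mesenteric artery (1.54 ± 0.15). The 3 measured genes of the C cluster were all lower: Hoxc4 read 148, 218 and 312 and 589.7, 768 and 939.7 (-1.87 ± 0.18), Hoxc5 differed by -2.16 ± 0.61 (-1.45 without aorta array 2, which was far below the others) and Hoxc8 by -1.86 ± 0.23. In the B cluster Hoxb6 read 289.7, 353 and 510.2 in aorta and 953, 1079 and 1344 in mesenteric artery (-1.56 ± 0.16). Hoxb7 (-1.50 ± 0.32), Hoxb2 (-1.25 ± 0.14), Hoxb4 (-0.73 ± 0.13) and Hoxb3 (-0.38 ± 0.13) were also lower. In the D cluster Hoxd4 was slightly lower (-0.36 ± 0.15, adjusted p = 0.0418). It did not pass without aorta array 1, 3, 5 or 6 or mesenteric array 1, 3, 4 or 6 (-0.42 to -0.32 over all arrays left out in turn). Under quantile normalization or centring neither Hoxd4 (-0.25 and -0.21) nor Hoxb3 (-0.22 and -0.22) passed. Hoxd8 (0.01 ± 0.09, adjusted p = 0.948), Hoxd9 (-0.47 ± 0.35, adjusted p = 0.229) and Hoxa7 (0.37 ± 0.18, adjusted p = 0.0765) did not pass. Without aorta array 1, and under quantile normalization or centring, another Hox gene, Hoxa7, was called higher in aorta. The difference at 15 months in BN and at 6 months in FBN was 1.17 and 1.42 for Hoxa5, -1.90 and -1.71 for Hoxc4, and -1.35 and -1.29 for Hoxb6, so the directions were those seen at 6 months in BN.

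Of 13 other regional transcription factors that passed the filter 8 were lower in aorta, 1 higher and 4 did not pass (median -1.24). Nr2f2, which specifies venous and lymphatic endothelium and is active in visceral mesenchyme, read 2275, 2519 and 2876 in aorta and 13853, 15159 and 15967 in mesenteric artery (-2.57 ± 0.08). Hand2, a factor of neural crest and visceral mesenchyme, read 19.4, 96.9 and 167 and 779.5, 1015 and 1312 (-3.74 ± 0.41), and Foxf1, a factor of gut mesenchyme, 11.9, 57.8 and 241 and 392, 586 and 728 (-3.36 ± 0.60). In aorta both were near the bottom of the signal range, so the size of these differences depends on the treatment of low values (-3.36 and -2.81 with the offset). The Hox cofactors Meis1 (-1.54 ± 0.08), Pbx3 (-1.50 ± 0.11) and Meis2 (-1.24 ± 0.10) were lower, as were Nr2f1 (-1.30 ± 0.18) and, by less, Msx1 (-0.39 ± 0.16). Msx1 did not pass without aorta array 1, 3, 5 or 6 or mesenteric array 1, 3 or 5 (-0.51 to -0.33 over all arrays left out in turn), nor under quantile normalization (-0.23) or centring (-0.24). Tbx18 was higher in aorta (0.65 ± 0.19), but did not pass in the fit of all 71 arrays (adjusted p = 0.084). Tbx3, Gata6, Prrx2 and Nr4a1 did not pass, with differences of 0.12 ± 0.24, -0.38 ± 0.26, 0.41 ± 0.29 and -0.09 ± 0.24 and adjusted p of 0.667, 0.203, 0.223 and 0.738.

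**Figure D4:**
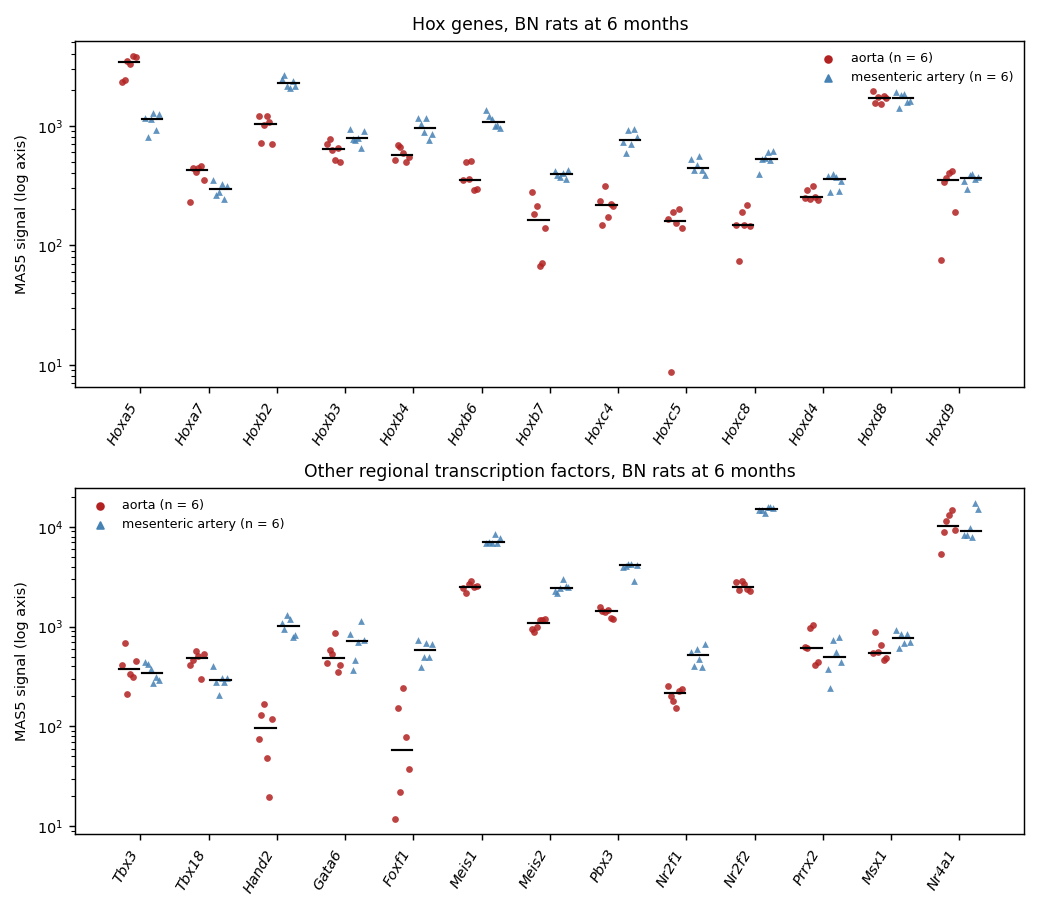
Signal in each of the 12 arrays (log axis; circles for aorta, triangles for mesenteric artery, bars for group medians) of the 13 Hox genes and 13 other regional transcription factors that passed the filter. Hoxa5 lies higher in every aorta array, the arrays of Hoxd8 overlap, and Hoxc4, Hoxb6, Hand2, Foxf1 and Nr2f2 lie lower in every aorta array.

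Of 31 measured genes of TGF-beta and BMP signalling 20 were lower in aorta, 2 higher and 9 did not pass. Grem1 read 22.5, 74.5 and 157 in aorta and 1512, 2465 and 3507 in mesenteric artery (-5.09 ± 0.38), and the other BMP antagonists Chrdl1 and Nog were lower, at -2.31 ± 0.14 and -1.59 ± 0.29. Among ligands Inhbb (-4.78 ± 0.57, and -3.69 with the offset), Bmp5 (-2.78 ± 0.24) and Inhba (-2.12 ± 0.27) were lower, and Bmp3 was higher at 1.87 ± 0.26. The other gene higher in aorta, the target gene Id1, passed narrowly (0.28 ± 0.12, adjusted p = 0.047), and it did not pass without any one of aorta arrays 1 to 5 or mesenteric arrays 2 to 6 (0.23 to 0.37 over all arrays left out in turn), nor under quantile normalization (0.11). The receptors Tgfbr1 and Tgfbr3 did not pass (-0.21 ± 0.13 and 0.36 ± 0.21, adjusted p = 0.175 and 0.137). Of 18 measured Wnt pathway genes 12 were lower and 4 higher. The secreted antagonists opposed each other. Frzb read 8075, 19861 and 22916 in aorta and 1359, 1547 and 2616 in mesenteric artery (3.28 ± 0.24), and Dkk3 was higher as well (1.13 ± 0.22). Sfrp5 read 189, 305 and 369 and 2589, 3636 and 3762 (-3.55 ± 0.15), and Sfrp1 differed by -2.59 ± 0.17. Lgr5, a receptor of the Wnt enhancer R-spondin, and Axin2, a target gene of the pathway, were lower, at -4.73 ± 0.48 (-3.95 with the offset) and -1.39 ± 0.19.

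In the renin-angiotensin group of 9 measured genes the largest difference was that of Mme, neprilysin, which degrades angiotensin and natriuretic peptides. It read 6240.1, 8278 and 10058 in aorta and 715, 1043 and 1269 in mesenteric artery (3.08 ± 0.15). Ace, the angiotensin converting enzyme, was lower at -0.71 ± 0.17. Of 20 complement and coagulation genes 15 were lower in aorta and 2 higher, with the protease Plau (-1.98 ± 0.20), the anticoagulant receptor Procr (-1.60 ± 0.17) and the first complement proteases C1r and C1s (-1.60 ± 0.20 and -1.58 ± 0.15) among the lower. Of 18 inflammatory genes on the array 11 passed the filter, of which 6 were lower in aorta, 2 higher and 3 not called. These shares, 54.5% lower and 18.2% higher, stand against 43.8% and 29.7% over all genes. Icam1, an adhesion molecule for leukocytes, read 447, 689 and 934 in aorta and 2943, 3999 and 4702 in mesenteric artery (-2.45 ± 0.16). Cxcl1 (-2.97 ± 0.62) and Ccl7 (-2.67 ± 0.47), both chemokines, varied widely between mesenteric arrays, from 219 to 4489 for Cxcl1. Of 14 interferon-stimulated genes 5 were higher, 6 lower and 3 did not pass. The shares of 35.7% higher and 42.9% lower lie near the 29.7% and 43.8% over all genes.

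Immediate early and heat shock genes in general follow handling of the tissue, and clock genes the hour of day. Of 23 measured immediate early and heat shock genes 12 were lower in aorta, 2 higher and 9 did not pass. These shares, 52.2% lower and 8.7% higher, stand against 43.8% and 29.7% over all genes. Ier3 read 650, 1001 and 1631 in aorta and 5760, 8619 and 16739 in mesenteric artery (-3.28 ± 0.29). Fos spanned 325 to 10696 in aorta and 6441 to 21405 in mesenteric artery (-2.73 ± 0.64). Egr2 and Junb were lower, at -1.69 ± 0.27 and -1.42 ± 0.29, whereas Nr4a2 was higher in aorta (2.28 ± 0.32). The heat shock gene Hspa1a spread over 1739 to 46368 within aorta alone and did not pass (adjusted p = 0.923). Of 17 clock genes 4 were higher in aorta, 6 lower and 7 did not pass, shares of 23.5% and 35.3% that lie below the 29.7% and 43.8% over all genes. Npas2 read 1441, 2319 and 3069 in aorta and 620.4, 810.4 and 1134 in mesenteric artery (1.35 ± 0.18), and Nfil3 differed by 1.61 ± 0.27. Nr1d1 (-1.27 ± 0.24), Nr1d2 (-0.94 ± 0.23) and Bhlhe41 (-1.72 ± 0.31) were lower. At 15 months in BN the same genes read -0.62, -0.33, 0.92, 0.72 and 0.25, each with the other sign. The difference between ages passed for Npas2 (1.97 ± 0.32, adjusted p = 0.00532), Nfil3 (1.94 ± 0.41, adjusted p = 0.0269), Nr1d2 (-1.66 ± 0.36, adjusted p = 0.0286) and Bhlhe41 (-1.96 ± 0.40, adjusted p = 0.0244), and for Nr1d1 it was -2.19 ± 0.59 (adjusted p = 0.0681). The labels used here give no time of day.

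Of 4 measures of array quality only the array median passed a test between the vessels. Arrays of the same vessel correlated at 0.947 or above across probe sets, and arrays of different vessels at 0.675 to 0.791. The log2 ratio of 3′ to 5′ signal averaged 0.523 for Gapdh in aorta and 0.59 in mesenteric artery (two-sided exact permutation test, p = 0.509), and 1.46 and 1.65 for Actb (exact p = 0.294). The median log2 signal of an array was 8.20 to 8.24 in aorta and 8.27 to 8.40 in mesenteric artery (exact p = 0.00216, the smallest that 6 against 6 arrays can give, and 0.00864 adjusted over 4 tests). The mean log2 signal of the poly-A spike-in probe sets was 9.08 in aorta and 9.56 in mesenteric artery (exact p = 0.113, and 0.226 adjusted over 4 tests). The part of the array median in the differences was not tested beyond the centring given above.

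The vessel difference was set beside the same contrast in older BN rats and in the other strain. In BN at 15 months (5 aorta and 6 mesenteric arrays) 12045 probe sets (70.7%) differed, 29.7% of all tested higher in aorta and 40.9% higher in mesenteric artery. Of the 12361 called at 6 months 10516 (85.1%) were called the same way there, which is 87.3% of the 15-month calls, and 32 the other way. In FBN at 6 months (6 arrays each) 5326 probe sets (31.2%) differed, 12.5% of all tested higher in aorta and 18.7% higher in mesenteric artery, and 4899 of the 12361 (39.6%, and 92% of the FBN calls) were called the same way and 10 the other way. Across probe sets the differences correlated at r = 0.954 with those at 15 months and at r = 0.89 with those in FBN, as a description over 17045 probe sets that share arrays within each contrast. The aorta groups were not equally uniform. The brown adipocyte mean was 12.53 to 12.80 in BN aorta at 6 months and 10.89 to 12.96 in FBN aorta, and the highest skeletal muscle mean was 10.43, 12.16 and 13.79 in BN aorta at 6 and 15 months and FBN aorta at 6 months.

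**Figure D5:**
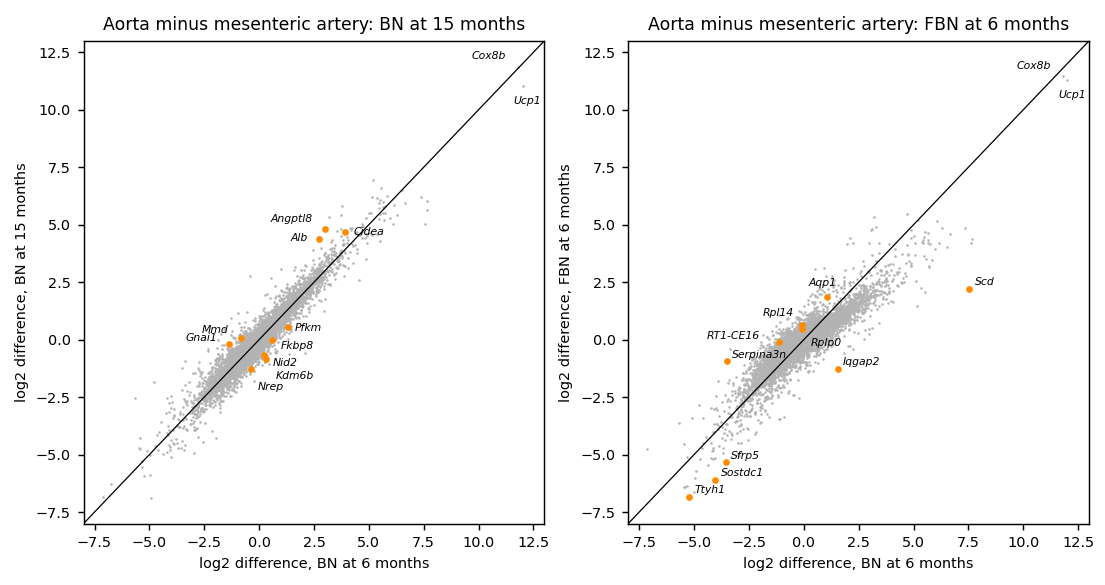
Log2 difference, aorta minus mesenteric artery, of 9906 genes in BN at 6 months (horizontal axis) against BN at 15 months (left) and FBN at 6 months (right), with the line of equality. Named points are genes whose difference changed between the contrasts, such as Alb on the left and Scd on the right; Ucp1 and Cox8b lie at the upper right of both panels.

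The difference between these contrasts was tested for each probe set. Between BN and FBN at 6 months 74 probe sets (0.434%) passed, 55 (0.323%) with a more positive value in BN and 19 (0.111%) with a more negative one. Without the FBN aorta array of the highest skeletal muscle mean, the only FBN array left out, 1068 passed, and the cause was not tested. The genes named next passed with and without that array, while Rplp0 did not pass under quantile normalization (-0.62) or centring (-0.49). Scd was more positive in BN by 5.32 ± 0.85 (adjusted p = 0.00759), with differences of 7.54 in BN and 2.22 in FBN. Sfrp5 and Sostdc1 were far lower in aorta in both strains, and more so in FBN: Sfrp5 by -3.55 and -5.34, Sostdc1 by -4.04 and -6.09. The glial gene Ttyh1 did the same (-5.22 and -6.85). Iqgap2, a scaffold protein, was higher in aorta in BN (1.54) and read -1.27 in FBN. On the other side were Serpina3n (-2.57 ± 0.54), an acute phase protease inhibitor, RT1-CE16 (-1.03 ± 0.22), a class I histocompatibility gene, Aqp1 (-0.79 ± 0.16), a water channel, and the ribosomal protein genes Rpl14 (-0.73 ± 0.16) and Rplp0 (-0.54 ± 0.12).

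Between BN at 6 and at 15 months 213 probe sets (1.25%) passed, 95 (0.557%) with a more positive value at 6 months and 118 (0.692%) with a more negative one, and 113 passed without the 15-month aorta array of the highest skeletal muscle mean. The genes named next passed with and without it, as did Npas2, Nfil3, Nr1d2 and Bhlhe41. Kdm6b, a histone demethylase, went from 0.32 at 6 months to -0.85 at 15 months (1.17 ± 0.21, adjusted p = 0.00888). Nrep, Nid2, Fkbp8 and Pfkm, the phosphofructokinase of muscle, were also more positive at 6 months, by 0.90 ± 0.17, 0.89 ± 0.17, 0.59 ± 0.11 and 0.77 ± 0.15. More negative at 6 months were Alb, albumin (-1.65 ± 0.29), and Angptl8, an insulin-induced inhibitor of lipoprotein lipase (-1.82 ± 0.34), both of which were higher in aorta at both ages. Cidea (-0.80 ± 0.13), Mmd (-0.86 ± 0.11) and Gnai1 (-1.17 ± 0.22) were more negative too. Mmd went from -0.81 to 0.05, and Gnai1 from -1.38 to -0.21. Of the groups above, the medians at 6 months in BN, at 15 months in BN and at 6 months in FBN were 4.57, 4.86 and 4.07 for brown adipocyte genes, -0.97, -1.19 and -0.62 for smooth muscle genes, and -2.11, -2.38 and -3.12 for Schwann cell genes.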

How the data were processed

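RNA of 12 vessel pieces was hybridised to 1-colour rat arrays with 31099 probe sets. The deposited intensities are MAS5 signals, made with GCOS per the submitters' processing notes, with versions not given in the sources used here. From the values, the authors scaled each array to a 2% trimmed mean of 1000.29 to 1000.39. Here log2 of the signal was taken with no offset, and 57 control probe sets were left out. A probe set was tested where its mean log2 signal in either vessel reached 8.23, the median over probe sets. Groups were compared with limma 3.58.1 in R 4.3.3 (lmFit, eBayes with trend and robust estimates, two-sided, Benjamini-Hochberg adjustment), fitted to these arrays only. With arrays, it is their number that limits the precision.

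Gene symbols came from GEO's platform annotation, with 20832 probe sets of 1 symbol, 436 of several and 9831 of none. Of those with 1 symbol 20764 matched RefSeq and 0 changed name. A gene is read by its probe set of highest mean signal. Named genes were the 15 largest called differences each way whose brighter group reached the 75th percentile. Up to 6 called members each way of each of 42 gene lists were named in order of adjusted p. Any member was named where its list is described, as were all Hox and regional factors. For a difference between contrasts, 5 genes each way were named by adjusted p among those that reached the same percentile. The members and the lists were chosen with earlier results of these data known. In simulated data with independent noise, 67, 67 and 66 of 17045 probe sets were given changes of 0.5, 1 and 2 log2 units. The fit recovered 38.8%, 85.1% and 97% of these changes, with 4.55% of calls false. In the real comparison 72.5% of probe sets differed, so the simulated shares do not carry over to it. The alternatives were quantile normalization, centring, an offset, other filters, plain eBayes, array weights, all 71 arrays, another probe set and leaving out each array. Arrays of other ages and groups were used only where stated.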

Additional observations from a re-analysis of the deposited data

Results flagged for a closer look

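In 12 of 174 groups of 6 arrays tested for a single distant array, 1 array lay far from the rest by Dixon's ratio, the gap to its neighbour over the whole range. Chance marks about 1 in 20 groups. In aorta, array 2 was the lowest for Hoxc5 (ratio 0.887, log2 signal 3.13 against a median of 7.38 in the others), Hoxc8 (ratio 0.628, 6.21 against 7.20) and Scn7a (ratio 0.728, 11.43 against 11.76). Aorta array 6 was the lowest for Reln (ratio 0.743, 6.74 against 8.41) and Sox10 (ratio 0.708, 5.79 against 7.79), and aorta array 4 for Mb (ratio 0.704, 10.51 against 11.44). In mesenteric artery, array 5 was the lowest for Mb (ratio 0.653, 4.65 against 5.90), P2rx1 (ratio 0.67, 13.57 against 14.34) and Pbx3 (ratio 0.825, 11.48 against 12.03). Mesenteric array 1 was the lowest for Fabp4 (ratio 0.689, 14.75 against 15.08), and array 6 the highest for Frzb (ratio 0.705, 11.35 against 10.53). Mesenteric array 2 had the lowest mean over the lymphatic endothelium genes (ratio 0.634, 11.62 against 12.14). Each of these genes, of which Mb stands in both vessels, was called with every array left out in turn.

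The vessel difference itself differed from that of another group by limma's test of the difference, with Benjamini-Hochberg adjustment over all tested probe sets, for 74 probe sets against FBN and 213 against 15 months. For both, the 5 genes of smallest adjusted p each way are given among those whose brighter group reached the 75th percentile of tested signals. Genes below that limit could have a smaller adjusted p, as Npas2 did against 15 months on the more positive side. Against FBN at 6 months it was more positive in BN for Scd by 5.32, Iqgap2 by 2.81, Sostdc1 by 2.05, Sfrp5 by 1.79 and Ttyh1 by 1.62, and the change was -2.57 for Serpina3n, -1.03 for RT1-CE16, -0.787 for Aqp1, -0.732 for Rpl14 and -0.536 for Rplp0. Against BN at 15 months it was more positive at 6 months for Kdm6b by 1.17, Nrep by 0.898, Nid2 by 0.895, Pfkm by 0.77 and Fkbp8 by 0.589, and the change was -1.82 for Angptl8, -1.65 for Alb, -1.17 for Gnai1, -0.863 for Mmd and -0.803 for Cidea. These values are log2 differences of differences.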

How the results depend on the processing

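The count of 12361 probe sets stayed within 11552 and 14854 under quantile normalization, centring, the offset, no filter, plain eBayes, array weights and the fit of all 71 arrays, and within 11964 and 12431 with each array left out in turn (4814 to 5068 higher in aorta, 7115 to 7363 higher in mesenteric artery). The stricter filter, which tests fewer probe sets, gave 7453, of which 3182 were higher in aorta and 4271 higher in mesenteric artery. The share of tested probe sets that differed depended on the filter. It was 72.5% in the main fit, 47.9% with no filter and 80% with the stricter filter. The counts of differences between contrasts stayed within 63 to 84 against FBN and 189 to 220 against 15 months under quantile normalization, centring and the offset. Without the aorta array of the highest skeletal muscle mean, an alternative chosen after seeing the data, they were 1068 and 113, and the cause was not tested. Of 278 named genes followed across these settings, which leave out Gk, 247 were called. Of these, 223 kept their call in all 21 settings that tested them, and 24 lost it in some. Of the 24, Eln and Mbp reversed, with the probe set of smallest p (-0.70 and 2.25). With that probe set Col4a1 also turned to -0.20 and Gata6 to 0.71. The other reversals were of genes that did not pass, or that were named for another contrast. Under quantile normalization Col4a1 was -0.32, Itga8 -0.049, Mgp -0.47, Mylk -0.35 and S100b -0.25. With arrays centred Col1a1 was 0.070, Col1a2 0.12, Col3a1 0.12, Hspa1a 0.077, Nr4a1 0.061, Rpl14 0.073 and Rplp0 0.063. With array weights Col1a1 was 0.035, Col1a2 0.084 and Col3a1 0.027. Some genes that did not pass gained a call with the same sign, among them Itga8 and Mylk in 2 settings and Col1a1, Col1a2 and Col3a1 in 1. With arrays left out in turn the ranges were -0.039 to 0.10 for Mgp, -0.045 to 0.046 for Hoxd8, -0.21 to 0.085 for Nr4a1, -0.51 to 0.44 for Hspa1a, -0.054 to 0.28 for Tbx3, -0.20 to 0.031 for Col1a1, -0.13 to 0.11 for Col1a2, -0.089 to 0.032 for Col3a1 and -0.30 to 0.038 for Cd68. In the fit of all 71 arrays 18 named genes lost their call, namely Acta1, Adra1d, Eln, Flt1, Higd1b, Hoxd4, Id1, Kdm6b, Kdr, Krt8, Nos3, Notch4, Nrep, RT1-DMa, Scd2, Sox17, Tbx18 and Tpsb2. No paired analysis was possible because the labels carry no replicate numbers shared by the vessels. Signals near the bottom of the range limit the size of a fold, as for Ucp1 and Cox8b in mesenteric artery.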
